A study of Mus musculus with 10 samples.

Results

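Macrophages in 10 inflammation-induced colon tumors of the mouse were followed through 9 genes of macrophage identity and polarization, found by name among the 16875 gene names of the expression table. The list asked for 10 genes: the surface and lysosomal markers Adgre1, Csf1r and Cd68, the C1q chains C1qa, C1qb and C1qc, the scavenger receptors Mrc1 and Cd163, the arginase gene Arg1 and the osteopontin gene Spp1. Cd163 has no row in the table and was not analysed here. None of the 9 genes passed the threshold between tumors with and without epithelial Wntless in the fit over all genes. Of the 16757 genes tested, 10.9% passed. The 9 genes divided by how they varied from tumor to tumor. Adgre1, Csf1r and the C1q chains went up and down together in both groups, and Mrc1, Arg1 and Spp1 had higher means after Wntless deletion but overlapped the controls.

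All mice were on a C57BL/6 background, between 6 and 10 weeks old at the start and preferentially female by the study's methods, and all received the carcinogen azoxymethane (AOM) followed by 3 cycles of 2% dextran sulfate sodium (DSS), which injures the colonic epithelium. The 5 control tumors were labelled Wls flox/flox. The 5 Villin-Wls cKO tumors carried Villin-Cre ERT2 in addition to Wls flox/flox, and the mice had been given 5 tamoxifen injections at 80 mg/kg starting 30 days before collection, whereas control tumors are described as free of tamoxifen. Wls encodes the carrier that Wnt proteins need to leave the cell, and the villin promoter directs its loss to intestinal epithelium, so the macrophages themselves were not the target of the deletion. RNA came from macrodissected tumor pieces. How many mice they came from is not stated, so that p-values measure the spread between tumors.

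Some facts of the series bear on every comparison below. Wls itself lay between 61.3 and 79.9 FPKM (fragments per kilobase of transcript, scaled to the mapped reads of the library) in control tumors and between 2.03 and 11.7 FPKM in Villin-Wls cKO tumors. Xist, transcribed from the inactive X chromosome, reached 439 to 701 FPKM in Villin-Wls cKO tumors but no more than 0.420 FPKM in controls, and Y-linked Eif2s3y reached 30.4 to 46.6 FPKM in controls but no more than 0.138 FPKM in the others. Deletion, tamoxifen and sex therefore cannot be told apart. Villin-Wls cKO tumors 2 and 3 also stood apart from the rest, with 469.5 and 669 FPKM of Krt5, a keratin of stratified squamous epithelium, against at most 0.315 FPKM in the other 8 tumors. The same pair kept the most Wls of its group, 11.6 and 11.7 FPKM, against 2.81, 3.61 and 2.03 FPKM in Villin-Wls cKO tumors 1, 4 and 5. Results that rest on this pair are given with and without it.

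Macrophages of the colon arise mostly from blood monocytes and depend on the receptor encoded by Csf1r. They clear dying cells and bacteria, make most of the C1q that starts the classical complement pathway, and in tumors can take on states that repair tissue or restrain T cells. Arg1 and Mrc1 are used as markers of the alternatively activated state, Nos2 of the classically activated state, and Spp1 of a tumor-associated state. None of these markers belongs to macrophages alone in a whole tumor: Spp1 and Arg1 can also be made by epithelial and other cells, and Cd68 by other phagocytes.

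The 3 identity markers had similar means in both groups, and none passed the threshold. Csf1r, the receptor for the macrophage growth factors CSF1 and IL-34, lies on chromosome 18 from 61100598 to 61132149 (GRCm38, GENCODE M21). It measured 13.04, 8.04, 9.46, 16.2 and 9.22 FPKM in control tumors 1 to 5, and 8.37, 15.3, 18.1, 11.2 and 6.85 FPKM in Villin-Wls cKO tumors 1 to 5. Control tumor 4 and Villin-Wls cKO tumors 2 and 3 were high, the other tumors were lower, and the groups overlapped over almost their whole range. The mean was 11.2 ± 3.37 FPKM (SD, n = 5) in control and 12.0 ± 4.70 FPKM (SD, n = 5) in Villin-Wls cKO tumors. On the log2(FPKM + 1) scale, Villin-Wls cKO minus control, the difference was 0.052 with a standard error of 0.26 and a 95% confidence interval from -0.53 to 0.64 (limma, Benjamini-Hochberg adjusted p = 0.932). The 3′ end of Csf1r overlaps Hmgxb3 on the other strand. The paper reports default parameters for its pipeline and does not name a strand setting.

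Adgre1, on chromosome 17 from 57358691 to 57483527, encodes the adhesion receptor known as F4/80. It was the least abundant of the 9 genes, with 3.56, 2.40, 3.16, 5.72 and 3.11 FPKM in control tumors 1 to 5 and 2.63, 4.75, 5.22, 3.73 and 1.84 FPKM in Villin-Wls cKO tumors 1 to 5. The same 3 tumors were highest as for Csf1r, and the lowest value was again that of Villin-Wls cKO tumor 5. The difference was -0.0059 (standard error 0.24, 95% confidence interval from -0.55 to 0.53, limma adjusted p = 0.993). Without Villin-Wls cKO tumors 2 and 3 the differences were -0.29 for Adgre1 and -0.30 for Csf1r, with limma adjusted p of 0.529 and 0.502.

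Cd68, on chromosome 11 from 69664213 to 69666153, encodes a glycoprotein of lysosomes in phagocytes. It measured 13.2, 13.4, 13.5, 24.4 and 17.7 FPKM in control tumors 1 to 5 and 12.8, 15.2, 20.4, 21.2 and 11.5 FPKM in Villin-Wls cKO tumors 1 to 5. Here control tumor 4 and Villin-Wls cKO tumor 4 were the highest of their groups. The difference was -0.020 (standard error 0.21, 95% confidence interval from -0.48 to 0.44, limma adjusted p = 0.969). In a whole tumor piece, fewer macrophages and less RNA per macrophage cannot be told apart, and this holds for each of the 9 genes.

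**Figure D1:**
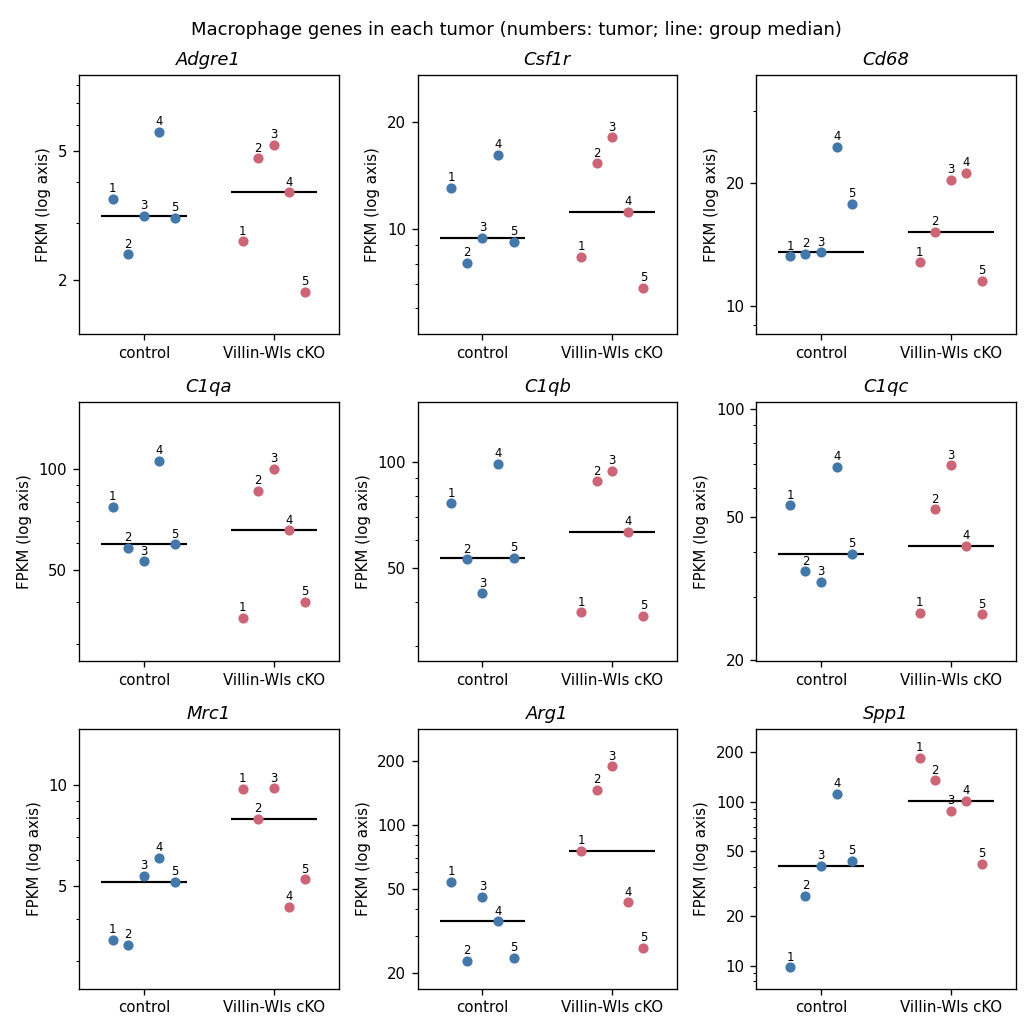
FPKM of the 9 macrophage genes on a log axis in each of the 5 control and 5 Villin-Wls cKO tumors; each point is 1 tumor, numbered as in the labels, and the line is the group median. The 2 groups overlap for all 9 genes, where 10.1% of all genes tested were free of overlap. Control tumor 4 is the highest control tumor in 8 of the 9. The Villin-Wls cKO points of Arg1 spread over a 7.17-fold range against 2.37-fold in control tumors.

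C1q was the most abundant product of the list in control tumors and none of its chains passed in either direction. C1qa, C1qb and C1qc encode the 3 chains that assemble into C1q, the molecule that recognises antibody complexes and dying cells at the start of the classical complement pathway. The genes lie side by side on the minus strand of chromosome 4, C1qb from 136880129 to 136886187, C1qc from 136889804 to 136893065 and C1qa from 136895917 to 136898803, within 18675 bases. C1qa measured 77.2, 58.2, 52.9, 106 and 59.6 FPKM in control tumors 1 to 5 and 35.8, 86.1, 100.3, 65.6 and 39.96 FPKM in Villin-Wls cKO tumors 1 to 5. Villin-Wls cKO tumors 1 and 5 were below every control tumor and none was above every control tumor.

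C1qb and C1qc followed C1qa closely. C1qb lay between 42.3 and 99.0 FPKM in control tumors, with a median of 53.6, and between 36.6 and 94.5 FPKM in Villin-Wls cKO tumors, with a median of 63.4. C1qc lay between 33.01 and 68.8 FPKM with a median of 39.5 in control tumors, and between 26.8 and 69.5 FPKM with a median of 41.5 in Villin-Wls cKO tumors. The differences were -0.17 for C1qa (standard error 0.30, limma adjusted p = 0.775), -0.064 for C1qb (standard error 0.32, limma adjusted p = 0.931) and -0.12 for C1qc (standard error 0.29, limma adjusted p = 0.840). The 95% confidence interval of C1qa ran from -0.84 to 0.49 and that of C1qb from -0.77 to 0.64. Without Villin-Wls cKO tumors 2 and 3, which were high in all 3 chains, the differences were -0.58 for C1qa, -0.47 for C1qb and -0.50 for C1qc, with limma adjusted p of 0.235, 0.376 and 0.295.

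The 3 chains kept nearly the same proportion in every tumor. C1qa was between 1.32 and 1.65 times C1qc, and between 0.958 and 1.25 times C1qb, while each chain alone varied by over 2-fold within a group. The promoters of C1qb and C1qc are shown here because these neighbouring genes moved together, and that of Spp1 for contrast, since it correlated with them at no more than 0.189 over all tumors. The sequences are from RefSeq (GRCm38.p6), 250 bases before to 50 after the annotated start, with capitals on GAGGAA, the core of sites bound by PU.1, the transcription factor of the myeloid lineage that Spi1 encodes. The C1qb window is chr4:136886151-136886450 on the minus strand, that of C1qc is chr4:136892865-136893164 on the minus strand, and that of Spp1 is chr5:104434861-104435160 on the plus strand.
C1qb: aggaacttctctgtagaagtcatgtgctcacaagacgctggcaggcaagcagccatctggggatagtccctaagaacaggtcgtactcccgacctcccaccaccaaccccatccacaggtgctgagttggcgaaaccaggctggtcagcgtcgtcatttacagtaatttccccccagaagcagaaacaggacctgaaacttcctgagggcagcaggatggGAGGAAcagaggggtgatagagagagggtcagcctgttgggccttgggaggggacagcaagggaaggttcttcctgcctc
C1qc: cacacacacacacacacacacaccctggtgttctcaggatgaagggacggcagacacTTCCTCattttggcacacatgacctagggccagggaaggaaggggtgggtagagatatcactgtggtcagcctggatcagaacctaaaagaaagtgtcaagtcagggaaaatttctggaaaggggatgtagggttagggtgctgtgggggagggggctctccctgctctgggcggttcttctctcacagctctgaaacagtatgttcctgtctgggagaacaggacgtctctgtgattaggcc
Spp1: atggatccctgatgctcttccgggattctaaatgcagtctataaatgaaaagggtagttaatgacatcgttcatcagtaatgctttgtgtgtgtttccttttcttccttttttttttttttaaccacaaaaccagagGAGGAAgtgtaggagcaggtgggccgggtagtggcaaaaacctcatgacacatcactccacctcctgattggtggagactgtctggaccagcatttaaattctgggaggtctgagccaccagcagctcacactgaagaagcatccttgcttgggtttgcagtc

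The match begins 30 bases before the start in C1qb, 193 bases before it on the other strand in C1qc, and 113 bases before it in Spp1. Of the 9 genes, 5 had a promoter in the RefSeq table (C1qb, C1qc, Spp1, Mrc1 and Cd68), and each had GAGGAA on 1 of the strands in at least 1 of its windows. Of all 32851 promoter windows of the table, 28.3% held these letters, so the match is common and is a description of the sequence. Spi1 had means of 8.76 FPKM in control and 11.6 FPKM in Villin-Wls cKO tumors without passing (limma adjusted p = 0.539).

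Mrc1, Arg1 and Spp1 had higher means in Villin-Wls cKO tumors, and none of the 3 passed the threshold. Arg1, on chromosome 10 from 24915221 to 24927484, encodes the arginase that breaks down arginine in alternatively activated and tumor-associated macrophages. It measured 53.9, 22.8, 45.6, 35.1 and 23.5 FPKM in control tumors 1 to 5 and 75.4, 147, 189, 43.0 and 26.3 FPKM in Villin-Wls cKO tumors 1 to 5. Tumors 1, 2 and 3 of the Villin-Wls cKO group were above every control tumor, and tumors 4 and 5 lay among the controls. The mean was 36.2 ± 13.6 FPKM (SD, n = 5) in control and 96.0 ± 69.4 FPKM (SD, n = 5) in Villin-Wls cKO tumors, a 2.65-fold ratio of means. The difference was 1.12 (standard error 0.51, 95% confidence interval from -0.0055 to 2.24, limma adjusted p = 0.197).

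The Arg1 difference rested largely on the pair of tumors with high Krt5. Without Villin-Wls cKO tumors 2 and 3 it was 0.36 (standard error 0.38, 95% confidence interval from -0.51 to 1.23, limma adjusted p = 0.634). The 6 squamous epithelium markers, of which Krt5 is one, summed to 998 and 1309 FPKM in this pair, to between 12.8 and 52.8 FPKM in the other 3 Villin-Wls cKO tumors and to between 42.3 and 215 FPKM in control tumors. The part of these markers in the Arg1 level was not tested, nor was that of the Wls remaining in the pair.

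Spp1, on chromosome 5 from 104435118 to 104441050, encodes osteopontin, a secreted phosphoprotein that binds integrins and CD44. It measured 9.78, 26.7, 40.5, 111 and 43.4 FPKM in control tumors 1 to 5 and 185, 135, 87.8, 102 and 41.9 FPKM in Villin-Wls cKO tumors 1 to 5. Tumors 1 and 2 of the Villin-Wls cKO group were above every control tumor. Control tumor 4 was within the range of the Villin-Wls cKO tumors, and Villin-Wls cKO tumor 5 was below control tumors 4 and 5. The difference was 1.46 (standard error 0.57, 95% confidence interval from 0.19 to 2.74, limma adjusted p = 0.136). It was 1.37 without Villin-Wls cKO tumors 2 and 3 and ranged from 1.03, without control tumor 1, to 1.87, without control tumor 4. The table gives Spp1 and the name RP24-299A7.2 identical values, so that its reads are those of the shared locus.

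Mrc1, on chromosome 2 from 14229392 to 14332057, encodes the mannose receptor CD206. It measured 3.46, 3.35, 5.36, 6.08 and 5.17 FPKM in control tumors 1 to 5 and 9.74, 7.93, 9.79, 4.35 and 5.24 FPKM in Villin-Wls cKO tumors 1 to 5. As with Arg1, Villin-Wls cKO tumors 1, 2 and 3 were above every control tumor and tumors 4 and 5 were not. The difference was 0.54 (standard error 0.23, 95% confidence interval from 0.026 to 1.05, limma adjusted p = 0.173), and 0.35 without tumors 2 and 3 (limma adjusted p = 0.475).

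Read over the whole list, 0 of the 9 genes passed a limma adjusted p of 0.05, where 10.9% of the 16757 genes tested did. At an unadjusted limma p under 0.05 there were 2, Spp1 and Mrc1, and 25.7% of all genes tested were at that level. The groups were free of overlap for 0 of the 9 genes, against 10.1% of all genes tested. The median difference was -0.0059 over the 9 genes and 0.0073 over all genes tested, with 4 genes higher and 5 lower on average. None of the 9 passed in any alternative that gave an adjusted p; the lowest was 0.0532, for Spp1 without control tumor 4. The sign of the difference of Adgre1, Cd68 and C1qb turned after rescaling all tumors to 1 common FPKM sum, which moved the median of all genes by 0.090, and that of Csf1r turned without Villin-Wls cKO tumors 2 and 3.

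**Figure D2:**
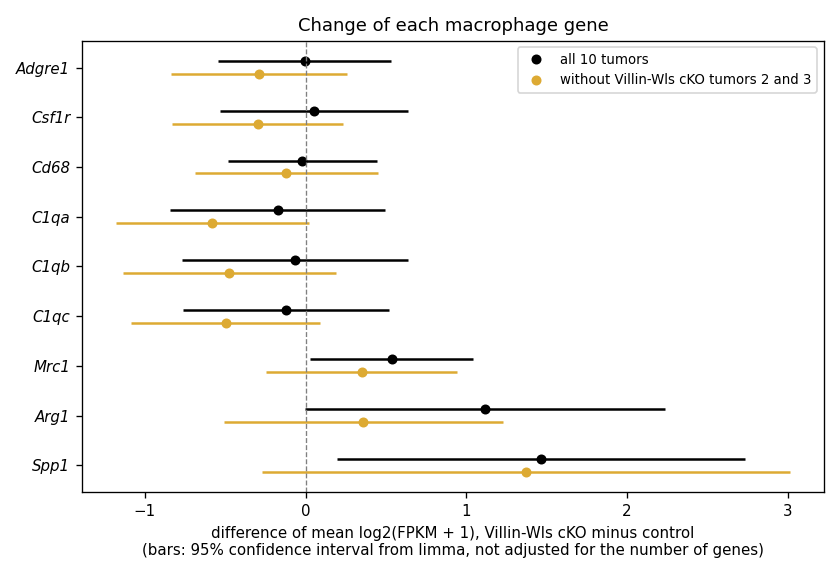
Difference of mean log2(FPKM + 1), Villin-Wls cKO minus control, for the 9 genes, with 95% confidence intervals from limma for all 10 tumors (black) and for the 8 tumors left without Villin-Wls cKO tumors 2 and 3 (yellow). The identity and C1q genes sit near 0 with all tumors, with wide intervals, such as -0.84 to 0.49 for C1qa. Without the pair their differences lie between -0.12 (Cd68) and -0.58 (C1qa). Spp1 keeps a difference of 1.37 without the pair, and Arg1 goes from 1.12 to 0.36.

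FPKM is scaled by transcript length, so that levels can be compared between genes. In control tumors the order by mean was C1qa (70.8), C1qb (64.9), Spp1 (46.3), C1qc (46.1), Arg1 (36.2), Cd68 (16.5), Csf1r (11.2), Mrc1 (4.68) and Adgre1 (3.59 FPKM). In Villin-Wls cKO tumors Spp1 (110 FPKM) and Arg1 (96.0 FPKM) stood ahead of C1qa (65.5 FPKM), and the order of the other genes was the same. The ranges of most neighbours in this order overlapped. One exception was Csf1r and Mrc1 in control tumors, where the lowest Csf1r value (8.04 FPKM) was above the highest Mrc1 value (6.08 FPKM). The other was C1qc and Cd68 in Villin-Wls cKO tumors, where the lowest C1qc value was 26.8 FPKM and the highest Cd68 value 21.2 FPKM. Within single tumors, the higher gene of a neighbouring pair was above the lower in all 5 tumors for 4 of 8 pairs in control tumors and 3 of 8 in Villin-Wls cKO tumors, where C1qb was between 1.36 and 1.68 times C1qc. Ordering by medians gave the same ranks in both groups.

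How the 9 genes varied from tumor to tumor was described by Pearson correlations of log2(FPKM + 1) over the 10 tumors after each group's mean was removed. These are descriptions over 10 tumor pieces that also share a scaling, and no p is attached to them. The 3 C1q chains correlated with one another between 0.983 and 0.986, and Csf1r correlated with Adgre1 at 0.970 and with the C1q chains between 0.953 and 0.973. Among the 15 pairs of identity and C1q genes the lowest value was 0.685, between Csf1r and Cd68. This block of Adgre1, Csf1r and C1q did not rest on Villin-Wls cKO tumors 2 and 3 alone. Without them Csf1r and C1qc were at 0.949, and Adgre1 was at 0.855 with C1qa, 0.840 with C1qb and 0.881 with C1qc.

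The polarization genes were less tied to that block. Spp1 correlated with the 6 identity and C1q genes between 0.180 and 0.556, and Mrc1 between 0.205 and 0.466. Without Villin-Wls cKO tumors 2 and 3, Mrc1 was at -0.23 with C1qa, -0.19 with C1qb and -0.10 with C1qc, and at 0.084 with Csf1r. Arg1 correlated with Csf1r at 0.777, but at 0.454 without Villin-Wls cKO tumors 2 and 3, and with C1qa at 0.617 and at 0.048 without them. Among themselves, Mrc1 correlated with Spp1 at 0.651 and with Arg1 at 0.595, and Arg1 with Spp1 at 0.141.

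**Figure D3:**
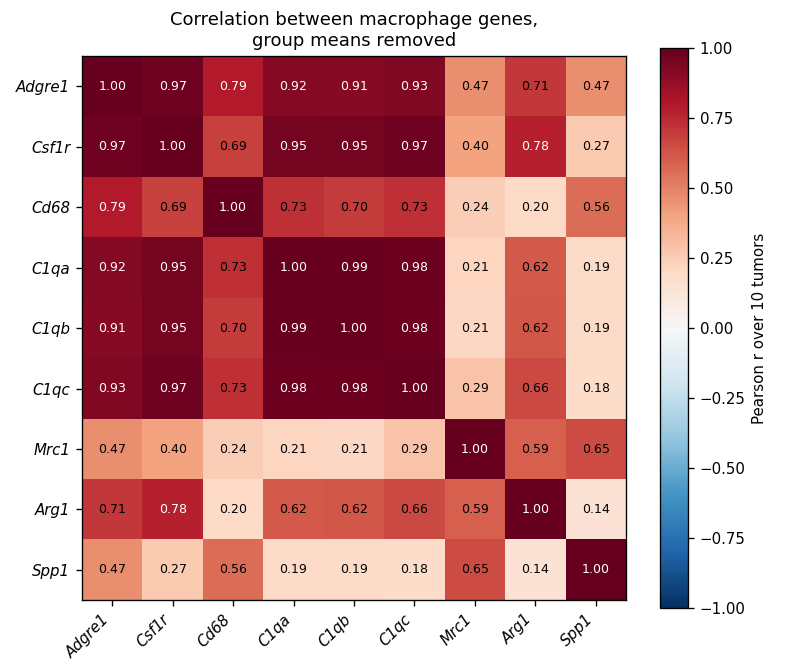
Pearson correlation between each pair of the 9 genes over 10 tumors, from log2(FPKM + 1) with each group's mean removed; colours run from -1 (blue) to 1 (red). Adgre1, Csf1r and the 3 C1q genes form a block with values of at least 0.91, and Spp1 and Mrc1 have values of at most 0.47 with each gene of that block.

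The genes most like each member were sought among 10609 genes with a mean of at least 5 FPKM, identical entries counted once. The 3 nearest to Csf1r were Lrp1 (0.977), a large scavenger receptor, the member C1qc (0.973) and Tyrobp (0.963), the adaptor of many myeloid receptors. For C1qb they were AF251705 (0.989), C1qa (0.986) and Mpeg1 (0.983), which encodes the macrophage pore protein perforin-2, and Mpeg1 was also nearest to C1qc (0.987). For C1qa they were C1qb, C1qc and AF251705 (0.979). Adgre1 had Csf1r, the inhibitory Fc receptor gene Fcgr2b (0.957) and Plekho1 (0.948), and Cd68 had RP24-565B3.2 (0.942), the macrophage lysozyme gene Lyz2 (0.918) and Rpp40 (0.888).

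For Arg1 the nearest were Eif2b5 (0.97), a subunit of a translation initiation factor, Gm7592 (0.969) and Dsg3 (0.959), a desmosomal cadherin of stratified epithelium. For Spp1 they were Ift57 (0.973), Fbln1 (0.948), which encodes a matrix protein, and S1pr2 (0.912). For Mrc1 they were Eftud2 (0.912), Cgnl1 (0.890) and Nedd8 (0.878). With 10609 genes searched over 10 tumors, these names were picked for having the highest values.

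Dividing each gene by Csf1r in the same tumor describes its level per unit of the lineage receptor. C1qa was between 5.596 and 7.23 times Csf1r in control tumors and between 4.28 and 5.85 times in Villin-Wls cKO tumors, which overlap. Adgre1 stayed between 0.269 and 0.353 of Csf1r over all 10 tumors. Arg1 was between 2.16 and 4.82 times Csf1r in control tumors, and at 9.01, 9.57, 10.4, 3.84 and 3.84 times in Villin-Wls cKO tumors 1 to 5. On this ratio tumor 1, whose Krt5 was at most 0.315 FPKM, was close to tumors 2 and 3.

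Spp1 relative to Csf1r was at 0.750, 3.31, 4.28, 6.87 and 4.71 in control tumors 1 to 5 and at 22.1, 8.83, 4.85, 9.07 and 6.12 in Villin-Wls cKO tumors 1 to 5. Tumors 1, 2 and 4 were above every control tumor, and tumor 1 was far above all others. Mrc1 relative to Csf1r was between 0.265 and 0.567 in control tumors and between 0.388 and 1.16 in Villin-Wls cKO tumors, with tumors 1 and 5 above every control tumor. Villin-Wls cKO tumor 1 thus had the highest Spp1 and Mrc1 per Csf1r and the lowest C1qa per Csf1r of all 10 tumors. The ratios were not tested.

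**Figure D4:**
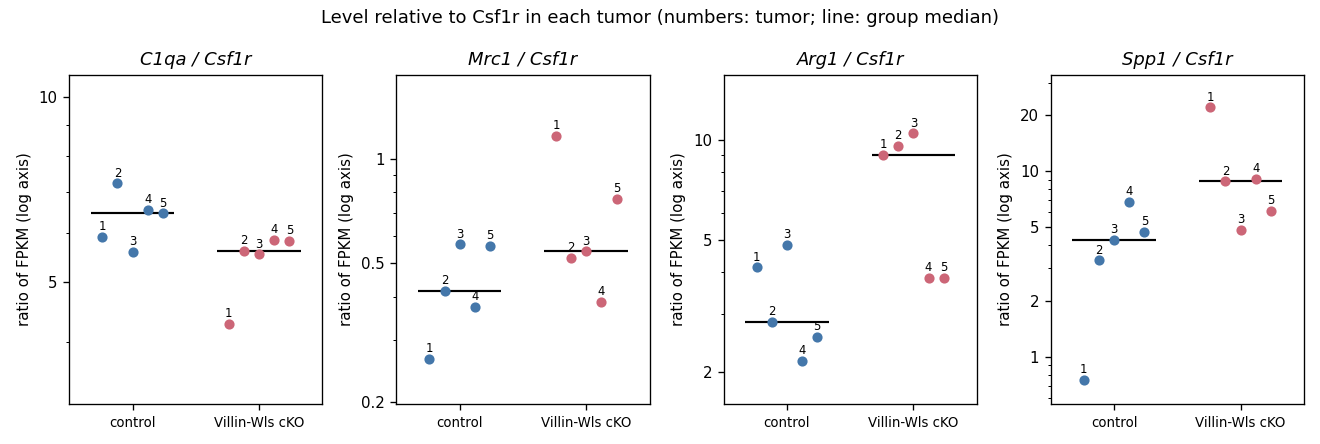
FPKM of C1qa, Mrc1, Arg1 and Spp1 divided by that of Csf1r in the same tumor, on log axes; each point is 1 numbered tumor and the line is the group median. C1qa per Csf1r varies by 1.69-fold over all tumors, Arg1 splits the Villin-Wls cKO group into tumors 1 to 3 (9.01 to 10.4) and tumors 4 and 5 (3.84), and Spp1 spans 29.5-fold.

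Further genes came from 9 lists of 89 genes, covering macrophages, their growth factors, osteopontin receptors and complement partners of C1q. Of these, 82 were tested and 17 passed the threshold (20.7%, against 10.9% of all genes), 16 of them higher and 1 lower in Villin-Wls cKO tumors. The lists were chosen with earlier results of these data known, so that the 2 shares are a description and no test of the lists. Of 15 further identity and lineage genes tested, 2 were higher and 0 lower, with a median difference of -0.033. Cd14, the co-receptor for bacterial lipopolysaccharide, rose from 59.0 ± 15.3 to 93.3 ± 17.5 FPKM (SD, n = 5 tumors per group, difference 0.67, limma adjusted p = 0.0357). Ctss, the lysosomal protease cathepsin S, rose from 142 ± 9.21 to 187 ± 31.9 FPKM (SD, n = 5 tumors per group, difference 0.38, limma adjusted p = 0.0470). Cd14 passed in 10 and Ctss in 7 of 20 alternatives. Without Villin-Wls cKO tumors 2 and 3 the difference of Cd14 was as large, 0.67, at an adjusted p of 0.121 with fewer tumors, and that of Ctss was 0.29 (adjusted p of 0.0971). Neither passed under quantile normalization. The other 13 did not pass, among them Lyz2, the most abundant of the list, with means of 312 and 260 FPKM in control and Villin-Wls cKO tumors.

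Of 6 resident macrophage genes tested, 1 was higher. F13a1, which encodes the A subunit of coagulation factor XIII, rose from between 0.158 and 0.839 FPKM in control tumors to between 4.25 and 14.9 FPKM in Villin-Wls cKO tumors (difference 2.54, standard error 0.33, limma adjusted p = 0.000972), and it passed in all 19 alternatives in which it was tested. By the mean over all 10 tumors Cbr2 was the most abundant gene of the list, although Pf4 (33.8 FPKM) and Stab1 (30.5 FPKM) had higher means in control tumors. Cbr2 had means of 19.9 and 89.2 FPKM in control and Villin-Wls cKO tumors and did not pass (limma adjusted p = 0.362). Its Villin-Wls cKO median was 19.4 and its highest value 258 FPKM, and the difference of 1.29 became -0.11 without tumors 2 and 3. Of 9 lipid and scar associated macrophage genes, 1 was lower. Ctsd, the lysosomal protease cathepsin D, fell from 459 ± 55.1 to 358 ± 23.0 FPKM (SD, n = 5 tumors per group, difference -0.35, limma adjusted p = 0.0324). Ctsd shares its values with Ifitm10, and it passed in 10 of 20 alternatives, not with rescaled FPKM sums; without tumors 2 and 3 its difference was also -0.35, at an adjusted p of 0.111. Lgals3, galectin-3, was the most abundant gene of that list, with means of 1336 and 1591 FPKM, and did not pass (limma adjusted p = 0.559). Which cells made the transcripts of Cd14, Ctss and the genes of this paragraph is not known from these samples.

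Of 7 monocyte genes, 2 were higher. Ccr2, the chemokine receptor by which monocytes leave the marrow, rose from 0.852 ± 0.156 to 3.39 ± 2.02 FPKM (SD, n = 5 tumors per group, difference 1.12, limma adjusted p = 0.0342), and passed in 10 of 19 alternatives, with a difference of 0.68 and an adjusted p of 0.10 without tumors 2 and 3. Plac8 rose from 1061 ± 274 to 2047 ± 477 FPKM (SD, n = 5 tumors per group, difference 0.95, limma adjusted p = 0.0139) and passed in all 20 alternatives; it is also made by intestinal epithelium. The ligands of the Csf1r receptor and the related growth factors and receptors, 5 genes, gave 0 calls in limma and 1 gene at an unadjusted p under 0.05, with a median of 0.10. Csf2ra, the most abundant of them, was at means of 15.6 and 16.1 FPKM.

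Of the 17 calls, 8 were in the lists of classical and alternative activation. Of 13 classical activation genes tested, 4 were higher and 0 lower, with a median of 0.26. Cxcl9 and Cxcl10, chemokines induced by interferon-gamma, rose from 0.726 ± 0.365 to 27.2 ± 14.3 FPKM (3.90, limma adjusted p = 6.67e-05) and from 2.93 ± 1.54 to 25.4 ± 10.02 FPKM (2.73, limma adjusted p = 0.000671; SD, n = 5 tumors per group). Nos2, the inducible nitric oxide synthase that competes with arginase for arginine, rose from 3.14 ± 2.67 to 51.2 ± 13.5 FPKM (SD, n = 5 tumors per group, difference 3.80, limma adjusted p = 6.67e-05). These 3 passed in all 20 alternatives. Il1a rose from 4.51 ± 1.84 to 9.36 ± 3.65 FPKM (SD, n = 5 tumors per group, difference 0.90, limma adjusted p = 0.0492) and passed in 9 of 20 alternatives; without tumors 2 and 3 the difference was no smaller, 1.003, at an adjusted p of 0.102. Il1b, the most abundant of the list, had means of 45.3 and 51.1 FPKM (limma adjusted p = 0.917). Il23a went the other way and just missed the threshold, from 12.3 ± 2.94 to 5.64 ± 3.51 FPKM (SD, n = 5 tumors per group, difference -1.12, limma adjusted p = 0.0516). In 4 Villin-Wls cKO tumors Il23a was below every control tumor, and without tumors 2 and 3 its difference was -0.85 (limma adjusted p = 0.159). The 3 genes that passed throughout are also expressed by epithelial cells after interferon, and the cells that made them are not known from these samples.

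Of 12 alternative activation genes tested, 4 were higher and 0 lower, with a median of 0.20. Tgm2, transglutaminase 2, was the most different and rose from 27.7 ± 10.7 to 122 ± 20.0 FPKM (SD, n = 5 tumors per group, difference 2.16, limma adjusted p = 0.000323). Socs1, an inhibitor of cytokine signaling, rose from 3.19 ± 1.07 to 12.1 ± 4.90 FPKM (1.60, limma adjusted p = 0.00463), and Il13ra1, a receptor chain for IL-13, from 24.6 ± 3.60 to 42.2 ± 5.79 FPKM (0.75, limma adjusted p = 0.00299; SD, n = 5 tumors per group). These 3 passed in all 20 alternatives. Il4ra, the receptor chain shared by IL-4 and IL-13, rose from 21.1 ± 8.27 to 35.2 ± 4.84 FPKM (SD, n = 5 tumors per group, difference 0.77, limma adjusted p = 0.0493), and passed in 7 of 20 alternatives, with a difference of 0.73 and an adjusted p of 0.164 without tumors 2 and 3. Among genes that did not pass, the difference was -0.64 for Ccl24 (limma adjusted p = 0.252) and 1.18 for Retnla (limma adjusted p = 0.168). It was -0.00031 for Mgl2 and Clec10a, which have identical values. The cells that made these transcripts are not known from these samples.

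For the partners of 2 members, the lists gave unlike counts. The 7 osteopontin receptor genes, CD44 and integrin chains, gave 0 calls in limma and 0 at an unadjusted p under 0.05, with a median of 0.069, and Itgb1, the most abundant, had means of 147 and 139 FPKM. Of 8 genes of the C1 complex and its neighbours, 3 were higher. C2, which is cleaved by activated C1, rose from 44.9 ± 9.74 to 104 ± 17.8 FPKM (SD, n = 5 tumors per group, difference 1.197, limma adjusted p = 0.00109), a value it shares with Cfb, the homologous factor of the alternative pathway. C3, the central component, rose from 10.5 ± 3.77 to 38.4 ± 19.5 FPKM (SD, n = 5 tumors per group, difference 1.67, limma adjusted p = 0.0157) and was at 1.29 without tumors 2 and 3 (adjusted p of 0.0779). Calr, the chaperone calreticulin that also binds C1q, rose from 292 ± 42.2 to 454 ± 34.9 FPKM (SD, n = 5 tumors per group, difference 0.64, limma adjusted p = 0.00290). The 3 C1q chains, with differences from -0.17 to -0.064, did not pass beside them.

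Markers of other cells were measured beside these results. The 8 pan-leukocyte markers summed to between 96.5 and 163 FPKM in control tumors and to between 107 and 251 FPKM in Villin-Wls cKO tumors, with 251 and 222 FPKM in tumors 2 and 3, and 1 of the 8, Lcp1, rose (0.91, limma adjusted p = 0.0381) and passed in 11 of 20 alternatives, with a difference of 0.69 and an adjusted p of 0.134 without tumors 2 and 3. The 6 neutrophil markers tested, led by S100a9, summed to between 227 and 775 FPKM in control tumors and to between 591 and 1241 FPKM in Villin-Wls cKO tumors. None of them passed in limma, 5 were at an unadjusted p under 0.05, and 3 passed without control tumor 3. One of the 6, Retnlg, shares its values with Retnla of the alternative activation list. The neutrophil sum was highest in Villin-Wls cKO tumors 2 and 3, the pair highest in Arg1, which mouse neutrophils can also make; the part of neutrophils in the Arg1 level was not tested. Of 8 T cell markers 4 were higher (Cd3d, Cd3e, Cd3g and Cd8a) and 0 lower, with a median difference of 0.78. Cd2 and Trac had positive differences without passing. Lck was nearly level, with means of 6.83 FPKM in control and 6.97 FPKM in Villin-Wls cKO tumors. So was Cd4, with 3.07 and 2.88 FPKM. Cd3g rose from 1.75 to 5.96 FPKM (limma adjusted p = 0.0159), and Cd8a from 0.0923 to 1.04 FPKM (limma adjusted p = 0.00673), passing in all 16 alternatives in which it was tested. Without tumors 2 and 3 Cd8a was under the filter on low values, and 0 of the other 7 passed.

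**Figure D5:**
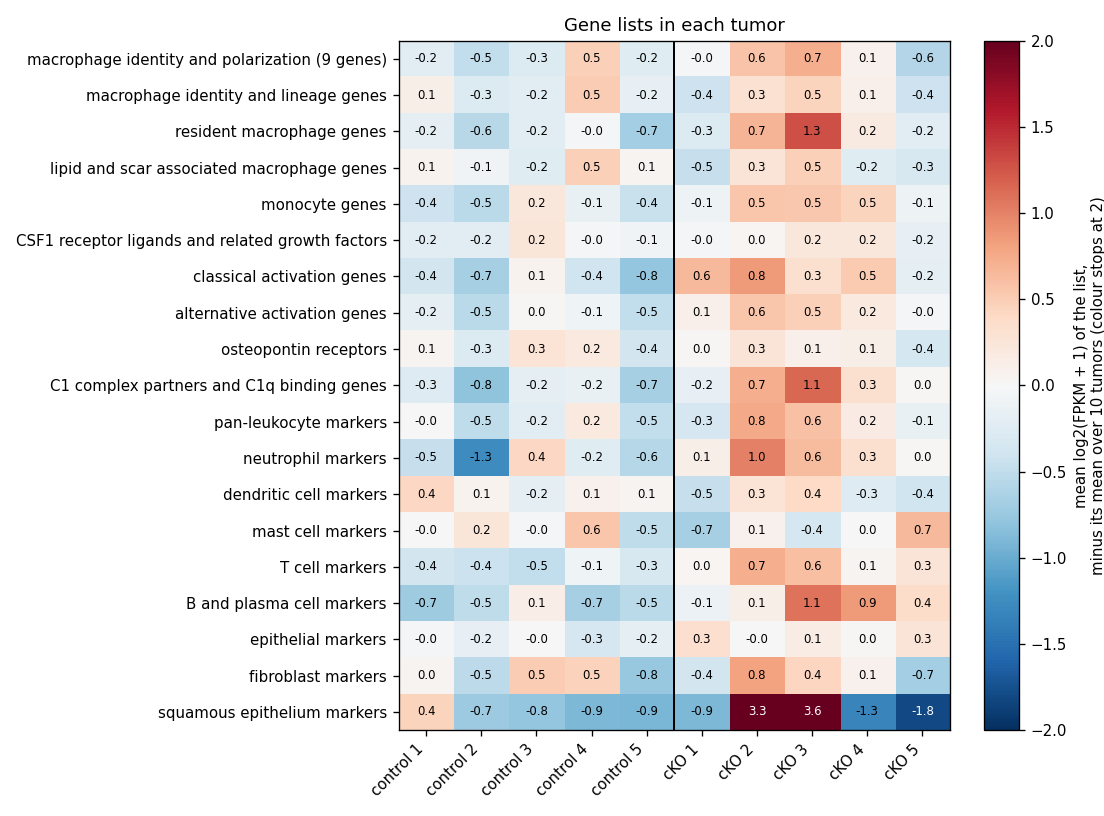
Mean log2(FPKM + 1) of each gene list in each tumor, minus the mean of that list over the 10 tumors; red is higher, blue is lower, and the colour scale stops at 2. The 9 genes and the further identity and lineage genes are highest in control tumor 4 and Villin-Wls cKO tumors 2 and 3, the same 3 tumors that lead Csf1r, and the squamous list separates Villin-Wls cKO tumors 2 and 3 from all others.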

How the data were processed

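Messenger RNA of 10 tumors was sequenced from TruSeq stranded libraries. The authors ran FastQC, used TopHat2 2.1.1 to map reads to GRCm38.p5 and quantified them with Cufflinks 2.2.1 and Cuffdiff; the deposited values are FPKM, 1 column per tumor, and all 10 columns matched a tumor's label. The paper reports default parameters, and the annotation release and strand setting are not named in the sources used here. Among 257 low genes of control tumors 1 and 2 at most 3 shared a ratio within 0.1%, so no whole reads were recovered and the depth is unknown; precision rests on the 5 tumors per group. FPKM sums differed between tumors (1207680 to 1533880), and median FPKM lay between 11.3 and 12.2.

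The log2(FPKM + 1) values were tested with limma 3.58.1 in R 4.3.3 (mean FPKM of at least 0.5, 16757 genes; two-sided moderated test with eBayes and a trend in the variance; Benjamini-Hochberg over all genes; threshold 0.05), which was also tested on simulated data. No set test was run. Summaries and figures used Python 3.11.15, pandas 2.3.3 and matplotlib 3.10.9. Positions are from GENCODE M21.

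The 9 genes and 18 further lists were chosen with earlier results of these data known. Named are all members, the 3 genes most like each, and of each of the 9 lists set around macrophages up to 4 genes past the threshold plus the most abundant. Spi1 was named for the motif. Apoe, Il23a, Ccl24, Retnla, Mgl2, Clec10a, Pf4, Stab1 and the cell type markers were named after their values were seen. Alternatives were no filter or one at a mean FPKM of 5, a pseudocount of 0.1, scaling to equal sums, to median ratios or by quantiles, robust eBayes or eBayes with no trend, a replicate block, each tumor left out, Villin-Wls cKO tumors 2 and 3 left out together, and log2 ratios of mean FPKM.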

Additional observations from a re-analysis of the deposited data

How the results depend on the processing

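None of the 9 macrophage genes passed the threshold under any alternative that gave an adjusted p, and 163 of 188 alternative values kept the direction. The 25 that turned were of Adgre1, Csf1r, Cd68 and the C1q chains, among them Adgre1 by the log2 ratio of mean FPKM (0.018). With rescaled FPKM sums Adgre1 was at 0.075, Cd68 at 0.077 and C1qb at 0.041, and without Villin-Wls cKO tumors 2 and 3 Csf1r was at -0.30. When single tumors were left out, the difference ranged from -0.13 to 0.16 for Adgre1, -0.11 to 0.21 for Csf1r, -0.12 to 0.13 for Cd68, -0.35 to 0.011 for C1qa, -0.23 to 0.11 for C1qb and -0.31 to 0.033 for C1qc, and from 0.43 to 0.68 for Mrc1, 0.79 to 1.49 for Arg1 and 1.03 to 1.87 for Spp1, whose direction held. Spp1 was ahead of Arg1 except by the log2 ratio of mean FPKM (1.25 against 1.41) and without control tumor 1 (1.03 against 1.28). Without Villin-Wls cKO tumors 2 and 3 the count of all genes past the threshold was 1101 in place of 1822, and that over the 18 lists was 13 in place of 24, with fewer tumors in the fit; with each tumor left out the latter lay between 15, without Villin-Wls cKO tumor 3, and 26, without control tumor 3. Over all genes 1026 were higher and 796 lower, but 1385 and 412 with rescaled sums, and 891 and 1124 with quantile normalization. The replicate numbers did not pair the tumors (correlations of deviations from the group means between -0.087 and 0.16 for the 5 numbers); with a replicate block 1627 genes and 0 of the 9 passed. With a mean FPKM of at least 5, Adgre1 could not be tested. The depth is unknown, so the limit of detection of low genes such as Adgre1 is also unknown.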

Other observations

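The remaining cell type lists give the surroundings of the macrophage genes. The 7 fibroblast markers, led by Col3a1, gave 0 calls in limma and 0 genes at an unadjusted p under 0.05, with sums between 283 and 1017 FPKM in control tumors and between 382 and 1162 FPKM in Villin-Wls cKO tumors. Of 5 dendritic cell markers tested 0 passed in limma and 1 was at an unadjusted p under 0.05; their sum was small, between 8.42 and 17.7 FPKM in control tumors and between 6.04 and 16.7 FPKM in Villin-Wls cKO tumors. The 5 mast cell markers tested gave 0 calls in limma and 1 gene at an unadjusted p under 0.05, with sums between 27.8 and 53.5 FPKM in control tumors and between 26.02 and 55.9 FPKM in Villin-Wls cKO tumors. Mcpt1 and Mcpt2 of this list have identical values, and both were counted and summed. Of 6 B and plasma cell markers tested, Mzb1, a chaperone of antibody assembly, rose from 2.21 ± 2.32 to 8.69 ± 4.47 FPKM (SD, n = 5 tumors per group, difference 1.68, limma adjusted p = 0.0331) and passed in 12 of 20 alternatives, with a difference as large, 1.74, and an adjusted p of 0.0895 without Villin-Wls cKO tumors 2 and 3. Of 7 epithelial markers, Krt20, a keratin of differentiated colonocytes, rose from 176 ± 48.7 to 327 ± 67.9 FPKM (SD, n = 5 tumors per group, difference 0.91, limma adjusted p = 0.0156). Of 6 squamous epithelium markers 0 passed in limma and 0 were at an unadjusted p under 0.05 with all tumors.

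Apoe, a lipid carrier of macrophages and other cells, went from 640 ± 255 to 392 ± 251 FPKM (SD, n = 5 tumors per group) and did not pass with all tumors (limma adjusted p = 0.229); without Villin-Wls cKO tumors 2 and 3 the difference was -1.40 with an adjusted p of 0.0309. It was chosen after its values were seen.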
